A study of Arabidopsis thaliana with 12 samples.

Results

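HYH, AT1G23390, CHIL, DFR and UF3GT are 5 genes tied to the flavonoid and anthocyanin pathway of Arabidopsis thaliana. They are 5 of 13356 genes that the platform gene table names, each found by name with 1 probe set, among 22746 probe sets tested. The members were chosen by their measured log2 differences after 3 h and 48 h of chilling, so their levels, chilling responses and genotype differences, which all come from the same arrays, are given here as description, with no test. They were set beside 7 further pathway genes, the only ones of 79 listed that the table assigned to a probe set of their own.

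Flavonoids are made from phenylalanine. Chalcone synthase and chalcone isomerase lead to the common precursors, from which one branch gives flavonols, stored as glycosides, and another gives anthocyanins through dihydroflavonol reductase. In leaves these compounds build up in strong light and in the cold, and bZIP factors of the HY5 type switch on many of the early genes. The kelch F-box protein encoded by AT1G23390 marks chalcone synthase for breakdown, so it works against the pathway at its entry.

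RNA of leaves was hybridised to 12 Affymetrix arrays, 2 for each of 6 groups, which combine 2 genotypes, wild type (WT) and the mutant rdm4, with 0, 3 or 48 h at 4 °C. The seedlings were 2 weeks old, raised on MS plates at 23 °C in the 16 h light phase and 18 °C in the 8 h dark phase, and each RNA came from at least 30 of them. RDM4 is a protein of RNA-directed DNA methylation that also associates with RNA polymerase II. The titles call the wild type C24, while the source names and the ecotype field of all groups have Col, and the genotype field of the mutant arrays reads 35S::RDM4, an overexpression construct. The description field of all 6 replicate 2 arrays names another treatment than title and source name do, drought in 1 case. The mutant allele is not given. The RDM4 transcript was not analysed here and so gives no check of these labels, and groups are named below by their titles. Unchilled plants were sampled at 0 h only, and chilling therefore cannot be told apart from time of day or plant age. Growth chambers differed between the replicates, and p-values measure the spread between the arrays.

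Values are log2 signals of a probe set as deposited, from 2.96 to 14.46, where a difference of 1 is a factor of 2. Replicate arrays correlated with r from 0.997 to 0.999 across probe sets, with replicates paired by title. Leaf markers were among the brightest probe sets in every group, with group means of RCA, which encodes Rubisco activase, between 13.69 and 13.96. Root markers were also present: PYK10, a root beta-glucosidase gene, had group means from 10.60 to 12.50, above 95.2% of probe sets even where it was lowest. Over the arrays as a whole, rdm4 minus WT turned around between 0 h and 3 h, with r = -0.61 between these differences across probe sets, which are not independent of each other. Results that compare the genotypes at 3 h therefore rest on labels that could not be checked, and 3 h values of the members are also given with the genotype labels of the 3 h groups exchanged.

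Marker levels moved with chilling as well as with genotype. All 3 measured of 5 listed root markers were called higher in WT at 3 h, by 0.65 to 3.28 on the log2 scale (limma), and at 48 h, by 0.35 to 2.29. In rdm4 none of the 3 was called at 3 h (also 0 at an unadjusted p under 0.05), and 2 were called higher and 1 lower at 48 h. All 3 measured of 7 listed leaf markers were called lower in WT at 48 h, where LHCB4.2, a light-harvesting protein gene, was at -1.11 ± 0.07, and in rdm4 2 of them were, LHCB4.2 at -1.77 ± 0.07. The part of these shifts in the chilling responses given below was not tested. In bulk tissue, fewer cells of a type and less RNA per cell cannot be told apart.

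HYH (AT3G17609), a bZIP transcription factor closely related to HY5, had the widest span of the members, from a group mean of 4.15 to one of 10.46. In WT its log2 signals were 5.42 and 5.11 at 0 h, 7.59 and 7.69 at 3 h, and 9.65 and 9.71 at 48 h. In rdm4 they were 4.13 and 4.17, then 7.59 and 7.46, then 10.41 and 10.51. Each later time was above the earlier one in every array of both genotypes. The signal at 48 h was 21.4-fold that at 0 h in WT, a log2 difference of 4.42 ± 0.10 (SE, n = 2 per group), and 79.5-fold in rdm4, a log2 difference of 6.31 ± 0.10. By size these were the 7th and the 4th highest of all probe sets in their comparison. The 0 h level in rdm4 lay at the 19.0th percentile of the array, among the dimmest 30% of probe sets, so the size of that change is uncertain. In log2 terms 53.9% of the 48 h difference was already present at 3 h in WT and 53.6% in rdm4. These shares would be 51.3% and 55.4% with the 3 h labels exchanged. Of the neighbours in the order of the 6 groups, the 3 h groups of WT and rdm4 were not separated, with a gap of 0.11 against an SE of 0.10 and array values that met at 7.59. Here and below, separated describes arrays that do not overlap and means over 2 SE apart, and is not a test.

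AT1G23390, the kelch F-box gene, ran the other way. At 0 h it was among the brightest probe sets, at 11.46 and 11.37 in WT and at 10.62 and 10.66 in rdm4. After 3 h it stood at 7.12 and 6.94 in WT and at 7.76 and 7.53 in rdm4, and after 48 h at 6.75 and 6.65 in WT and 5.54 and 5.35 in rdm4. No chilled array came near an unchilled one. The 48 h signal was 26.3-fold lower than at 0 h in WT, a log2 difference of -4.72 ± 0.10, and 36.7-fold lower in rdm4, a log2 difference of -5.20 ± 0.10. These were the 6th and the 3rd lowest differences of all probe sets. As labelled, 93.1% of the 48 h log2 difference had been reached at 3 h in WT and 57.6% in rdm4. With the 3 h labels exchanged these shares would be 80.0% and 69.5%, and over both genotypes the share was 74.5%. All neighbours in the order of the 6 groups were separated by more than 2 SE, the closest being WT at 48 h and WT at 3 h with a gap of 0.33.

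CHIL (AT5G05270) encodes a chalcone isomerase-like protein that has no isomerase activity of its own and helps chalcone synthase make the right product. Its signals in WT were 7.74 and 7.72 at 0 h, 8.61 and 8.65 at 3 h, and 11.28 and 11.35 at 48 h. In rdm4 they were 6.78 and 7.13, then 7.98 and 7.88, then 10.87 and 10.95. The larger part of the change came after 3 h, and the share of the 48 h log2 difference present at 3 h was 24.99% in WT and 24.62% in rdm4, or 5.47% and 42.3% with the 3 h labels exchanged. At 48 h the log2 difference of CHIL from 0 h was 3.58 ± 0.10 in WT and 3.95 ± 0.10 in rdm4, where it amounts to 15.5-fold. The rdm4 arrays were below the WT arrays at each of the 3 times. In the order of the groups, WT at 0 h and rdm4 at 3 h were not separated, with a gap of 0.20 that was just under 2 SE.

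**Figure D1:**
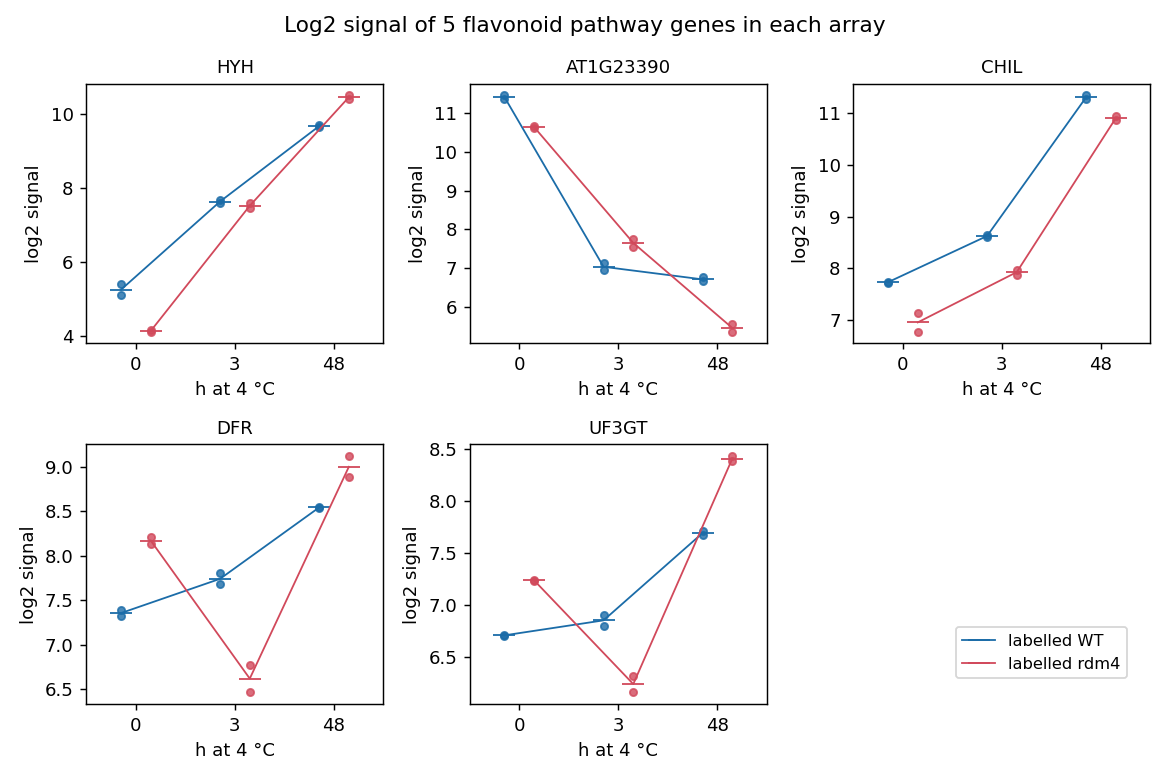
Log2 probe set signal (vertical axis, a separate scale in each panel) of the 5 member genes against hours at 4 °C (horizontal axis, 3 times at equal spacing, not to scale). Points are single arrays, 2 per group, and bars joined by lines are group means for the arrays labelled WT (blue) and rdm4 (red). HYH and CHIL climb at each step, AT1G23390 drops from above 10 to below 8 within 3 h, and DFR and UF3GT dip at 3 h under the rdm4 label only among these members.

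DFR (AT5G42800) encodes dihydroflavonol reductase, the first enzyme of the branch that leads to anthocyanins. In WT its signals were 7.32 and 7.39 at 0 h, 7.68 and 7.80 at 3 h, and 8.55 and 8.53 at 48 h, a steady climb of small steps. In rdm4 they were 8.21 and 8.13 at 0 h, 6.78 and 6.47 at 3 h, and 8.88 and 9.12 at 48 h. Under the rdm4 label the 3 h arrays were thus the lowest of all 12, and the 48 h arrays the highest. The 3 h difference was 0.38 ± 0.10 in WT and -1.55 ± 0.10 in rdm4, and the 48 h difference was 1.19 ± 0.10 and 0.83 ± 0.10. With the 3 h labels exchanged, the 3 h difference would be -0.74 in WT and -0.43 in rdm4, below 0 in both. At 48 h DFR was 2.28-fold above 0 h in WT and 1.78-fold in rdm4, a far smaller change than those of HYH and CHIL.

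UF3GT (AT5G54060), also known as UGT79B1, encodes the enzyme that adds xylose to anthocyanin glucosides, a late step. It had the same shape as DFR. Its signals in WT were 6.72 and 6.70 at 0 h, 6.80 and 6.91 at 3 h, and 7.67 and 7.71 at 48 h. In rdm4 they were 7.24 and 7.23, then 6.16 and 6.32, then 8.38 and 8.43. The 3 h arrays labelled rdm4 were again the lowest of the 12 and the 48 h ones the highest. WT at 0 h and at 3 h were not separated, with a gap of 0.14 against an SE of 0.07. With the 3 h labels exchanged, the 3 h difference of UF3GT would be -0.47 in WT and -0.38 in rdm4. The 48 h difference was 0.98 ± 0.07 in WT and 1.17 ± 0.07 in rdm4. Averaged over the genotypes, which does not depend on the genotype labels at 3 h, the 3 h differences of DFR and UF3GT were -0.58 ± 0.07 and -0.42 ± 0.05, and those of HYH and CHIL were 2.88 ± 0.07 and 0.93 ± 0.07.

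The other pathway genes were tested with limma, adjusting p over all 22746 probe sets by the Benjamini-Hochberg method, with a call at an adjusted p under 0.05. Of the 7, 4 encode enzymes that attach sugars to flavonols or flavonoids: UGT78D1 adds rhamnose and UGT78D3 arabinose at position 3, UGT78D2 adds glucose to flavonols and anthocyanidins, and UGT89C1 (AT1G06000) adds rhamnose at position 7. Another 2 modify anthocyanins: UGT75C1 (AT4G14090) adds glucose and AT5MAT malonate. BAN encodes anthocyanidin reductase, which serves tannin synthesis in the seed coat.

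After 48 h, 6 of these 7 genes rose in WT and the same 6 in rdm4, against 24.6% and 22.8% of all probe sets called higher, and BAN was not called. In the mean of both genotypes it was again 6 of 7, against 27.4%. The median log2 difference of the 7 was 2.35 in WT and 3.58 in rdm4, beside -0.02 and -0.01 over all probe sets. Of the 7, 5 rose at least 2-fold in each genotype, against 5.91% and 6.30% of all probe sets. The same 6 were called in both genotypes when the 3 h arrays were left out.

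The flavonol glycosylation genes rose most. UGT89C1 had signals of 7.96 and 7.91 in WT at 0 h and of 11.24 and 11.26 at 48 h, and rose 9.95-fold (log2 3.31 ± 0.07, adjusted p = 4.08e-12). In rdm4 it went from 7.10 and 7.15 to 11.19 and 11.16, a rise of 16.5-fold (log2 4.04 ± 0.07, adjusted p = 5.06e-13). UGT78D1 rose by 2.93 ± 0.07 in WT and by 3.58 ± 0.07 in rdm4 on the log2 scale, and UGT78D2 5.11-fold and 13.2-fold. UGT78D3 rose 6.94-fold and 13.2-fold, from levels among the dimmest 30% of probe sets at 0 h, so that its size is uncertain. UGT78D2 and UGT78D3 lie close together in the genome, with 1 protein-coding gene between them in the RefSeq gene table (TAIR10.1).

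The 2 genes grouped here as anthocyanin genes rose less, while UGT78D2, which acts on anthocyanidins too, is counted with the flavonol set. UGT75C1 went from 8.07 and 8.03 to 8.54 and 8.63 in WT, a log2 rise of 0.53 ± 0.08 (limma, adjusted p = 6.87e-05), and from 8.19 and 8.28 to 8.99 and 9.10 in rdm4, a rise of 0.81 ± 0.08 (adjusted p = 1.55e-06). AT5MAT rose by 1.42 ± 0.08 in WT and 1.32 ± 0.08 in rdm4. These sizes lie near those of DFR and UF3GT. The flavonol glycosylation genes rose by 2.35 to 3.31 in WT, all below CHIL at 3.58. In rdm4 they rose by 3.58 to 4.04, where CHIL was at 3.95. The gap between the flavonol and the anthocyanin set was not tested. BAN, at group means from 4.53 to 4.73, differed from 0 h by -0.01 ± 0.10 in WT and -0.03 ± 0.10 in rdm4, and most of its levels were among the dimmest 30%.

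**Figure D2:**
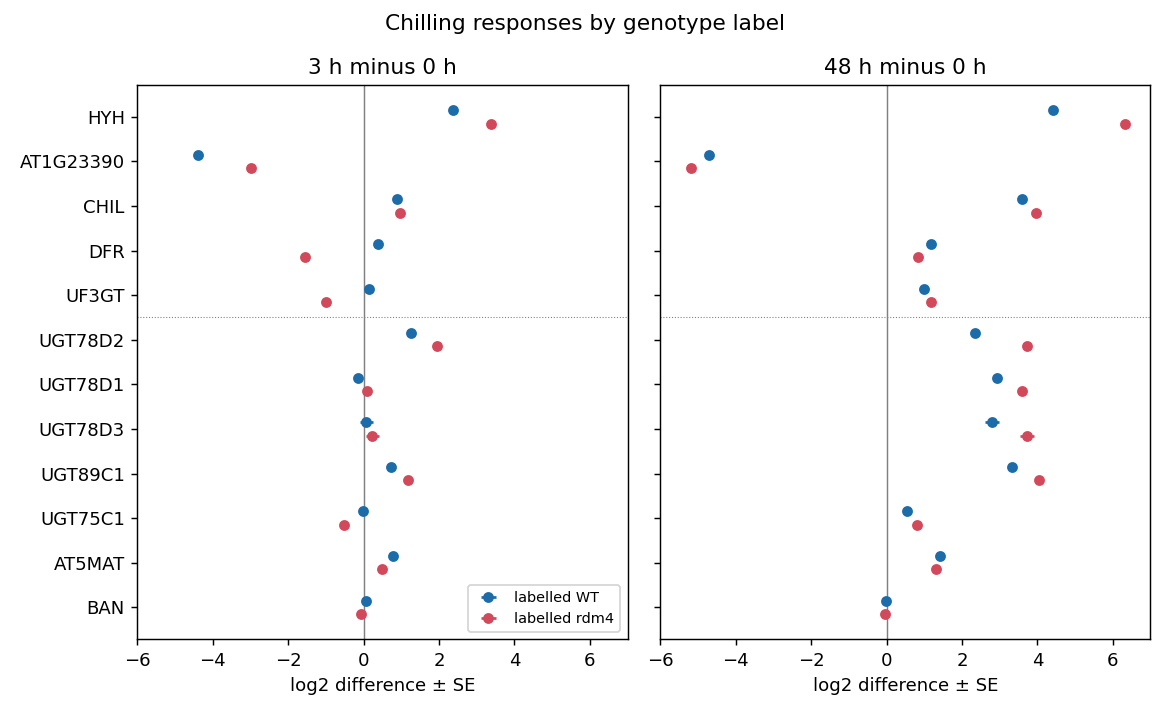
Log2 difference from 0 h (horizontal axis) at 3 h (left) and at 48 h (right) for the 5 members (above the dotted line) and the 7 other pathway genes (below it). Points are model estimates with SE for the arrays labelled WT (blue) and rdm4 (red), 2 arrays per group. At 48 h the flavonol glycosylation genes stand between 2.35 and 4.04, UGT75C1 and AT5MAT between 0.53 and 1.42, and BAN at 0.

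At 3 h fewer of the 7 genes were called higher than at 48 h. In WT 3 of the 7 genes were called higher, while 23.1% of all probe sets were: UGT78D2 at 1.26 ± 0.07 (limma, adjusted p = 2.22e-08), AT5MAT at 0.79 ± 0.08 and UGT89C1 at 0.71 ± 0.07. In rdm4 the same 3 were called higher, against 17.1%, with UGT78D2 at 1.94 ± 0.07, UGT89C1 at 1.19 ± 0.07 and AT5MAT at 0.48 ± 0.08. UGT75C1 fell in rdm4, by 0.52 ± 0.08 (adjusted p = 1.39e-04), where 22.9% of all probe sets were called lower, and was at -0.01 ± 0.08 in WT. Exchanging the 3 h labels would put it at -0.33 in WT (adjusted p = 0.00456) and at -0.19 in rdm4 (adjusted p = 0.0728).

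UGT78D1 and UGT78D3 did not pass the test at 3 h. UGT78D1 was at -0.14 ± 0.07 in WT (limma, adjusted p = 0.124) and at 0.08 ± 0.07 in rdm4 (adjusted p = 0.440), although it was among the strong risers at 48 h. Under exchanged 3 h labels it would be called lower in WT, at -0.28 (adjusted p = 0.00615), and higher in rdm4, at 0.22 (adjusted p = 0.0254). In WT it had signals of 5.89 and 5.99 at 0 h, 5.75 and 5.85 at 3 h, and 8.87 at 48 h in both arrays. UGT78D2 instead had reached 53.6% of its 48 h log2 difference by 3 h in WT and 52.1% in rdm4, shares near those of HYH in the arrays as labelled. The shares of UGT78D2 would be 61.6% and 47.1% with the 3 h labels exchanged.

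**Figure D3:**
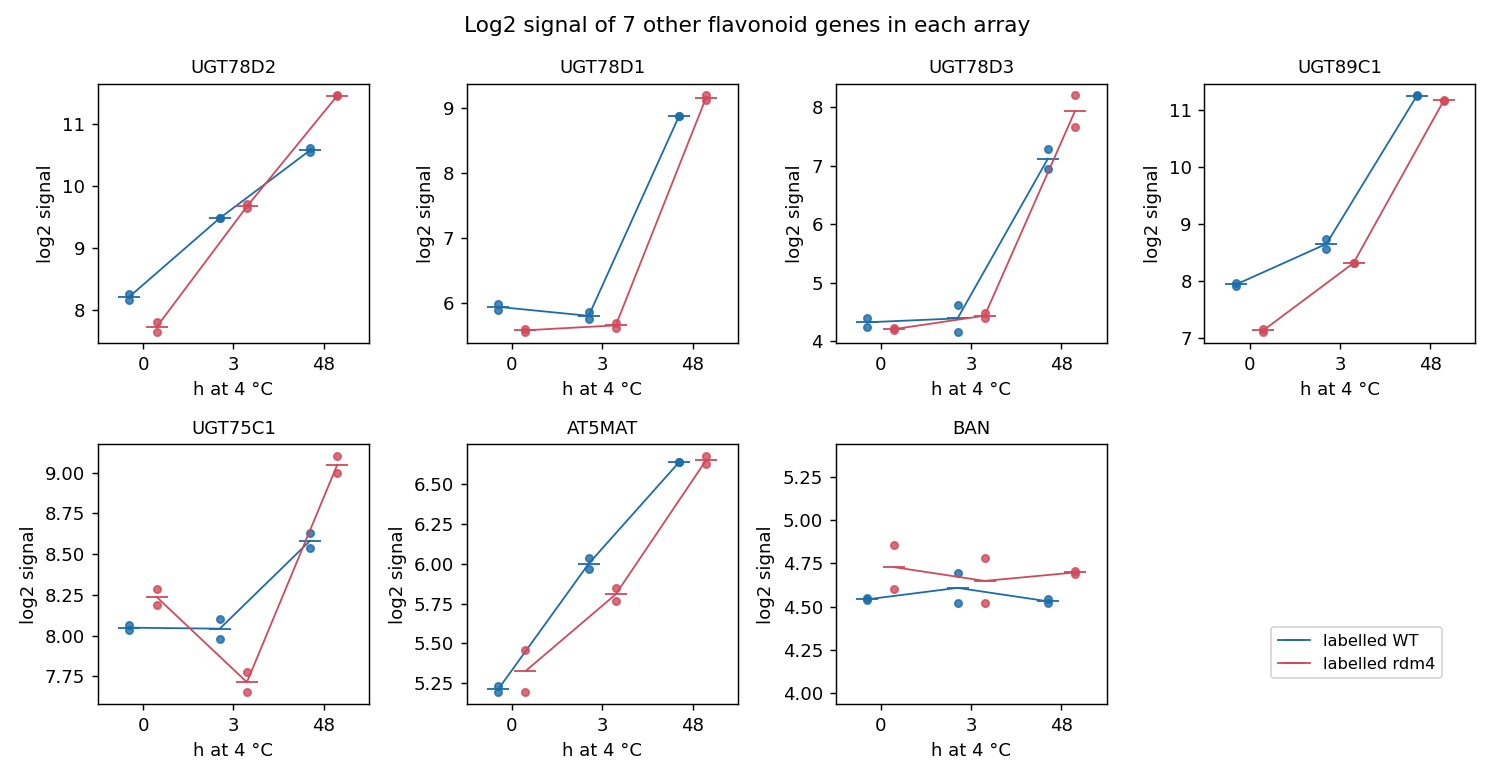
Log2 probe set signal (vertical axis, a separate scale in each panel) of the 7 other pathway genes against hours at 4 °C (horizontal axis, 3 times at equal spacing, not to scale). Points are single arrays, 2 per group, and bars joined by lines are group means for the arrays labelled WT (blue) and rdm4 (red). UGT78D1 and UGT78D3 are near their 0 h level at 3 h and high at 48 h, UGT78D2 climbs at both steps, and UGT75C1 dips at 3 h under the rdm4 label.

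The difference between the genotypes was taken at each time. For the members it is a description, since their genotype differences at 0 h and 3 h make up the difference between the 3 h responses on which they were chosen, and the other 7 genes were tested. Before chilling, 16.1% of all probe sets were called higher in rdm4 and 13.7% lower. HYH was at -1.11 ± 0.10 (rdm4 minus WT, log2 ± SE), CHIL at -0.78 ± 0.10 and AT1G23390 at -0.78 ± 0.10. DFR was at 0.81 ± 0.10 and UF3GT at 0.53 ± 0.07. Among the members, HYH, CHIL and AT1G23390, which works against the pathway, had lower values in rdm4, and DFR and UF3GT higher ones. The further anthocyanin genes UGT75C1, at 0.19 ± 0.08 (limma, adjusted p = 0.0891), and AT5MAT, at 0.11 ± 0.08 (adjusted p = 0.37), were not called. Of the 7 other genes 3 were called lower in rdm4 (limma), UGT89C1 by 0.81 ± 0.07, UGT78D2 by 0.49 ± 0.07 and UGT78D1 by 0.36 ± 0.07, and the other four were not called.

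After 48 h HYH stood at 0.78 ± 0.10, on the other side of 0 from its value before chilling, UF3GT at 0.71 ± 0.07 and DFR at 0.46 ± 0.10. AT1G23390 was at -1.26 ± 0.10 and CHIL at -0.40 ± 0.10. Of the other genes 4 were called higher in rdm4 (limma), where 16.0% of all probe sets were called higher and 19.0% lower: UGT78D2 by 0.88 ± 0.07, UGT78D3 by 0.81 ± 0.17, UGT75C1 by 0.47 ± 0.08 and UGT78D1 by 0.29 ± 0.07.

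At 3 h 3 members had the opposite sign to 0 h and 48 h in the arrays as labelled. DFR was at -1.12 ± 0.10, UF3GT at -0.61 ± 0.07 and AT1G23390 at 0.62 ± 0.10, and exchanging the labels would turn each sign. CHIL was below 0 as at the other two times, at -0.70 ± 0.10. HYH was at -0.11 ± 0.10 with a 95% interval from -0.32 to 0.09. Of the 7 other genes 2 were called lower in the arrays labelled rdm4 and none higher (limma; 1, UGT78D2, at an unadjusted p under 0.05). These were UGT89C1 at -0.34 ± 0.07 (adjusted p = 0.00230) and UGT75C1 at -0.33 ± 0.08 (adjusted p = 0.00499), which passed no longer when either WT 3 h replicate 1 (adjusted p = 0.0533) or rdm4 3 h replicate 2 (adjusted p = 0.0535) was dropped. Over all probe sets 17.6% were called higher and 19.1% lower at 3 h, and 47.9% of the calls were higher, a share that became 60.2% after centring each array on its median.

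Root markers moved with the genotype labels too, with the signs of DFR and UF3GT at 0 h and 3 h. All 3 measured of 5 listed were called higher in rdm4 at 0 h and lower at 3 h, AT5G17820, a root peroxidase gene, by 1.77 ± 0.08 and then at -1.55 ± 0.08. Over all probe sets these differences also turned (r = -0.61). The courses were unlike: from 0 h to 3 h the root markers were at -0.07 to -0.04 in rdm4, where DFR was at -1.55 and UF3GT at -0.99. In WT they were at 0.65 to 3.28, with DFR at 0.38 and UF3GT at 0.14. The summed linear signal of the root markers was 1590 to 1618 in WT and 3971 to 4033 in rdm4 at 0 h, 6068 to 6070 and 3689 to 3968 at 3 h, and 3300 to 3303 and 3153 to 3280 at 48 h. PYK10, the brightest of them in every group, dominates this sum. The 3 measured leaf markers of 7 listed summed to 36490 to 37450 in WT and 34266 to 35321 in rdm4 at 0 h, 33952 to 35063 and 38371 to 38977 at 3 h, and 28742 to 29398 and 27979 to 28183 at 48 h. The 3′ minus 5′ log2 signal of 3 control transcripts, a sign of RNA integrity, was also compared. For GAPDH rdm4 minus WT was -0.20 at 0 h, 0.12 at 3 h and 0.03 at 48 h, with group SDs from 0.03 to 0.11 (n = 2). For actin it was -0.06, -0.07 and -0.005 at these times, and for ubiquitin -0.01, -0.03 and 0.02. Between 0 h and 3 h actin and ubiquitin thus did not turn sign as GAPDH did. The part of these in the genotype differences was not tested.

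**Figure D4:**
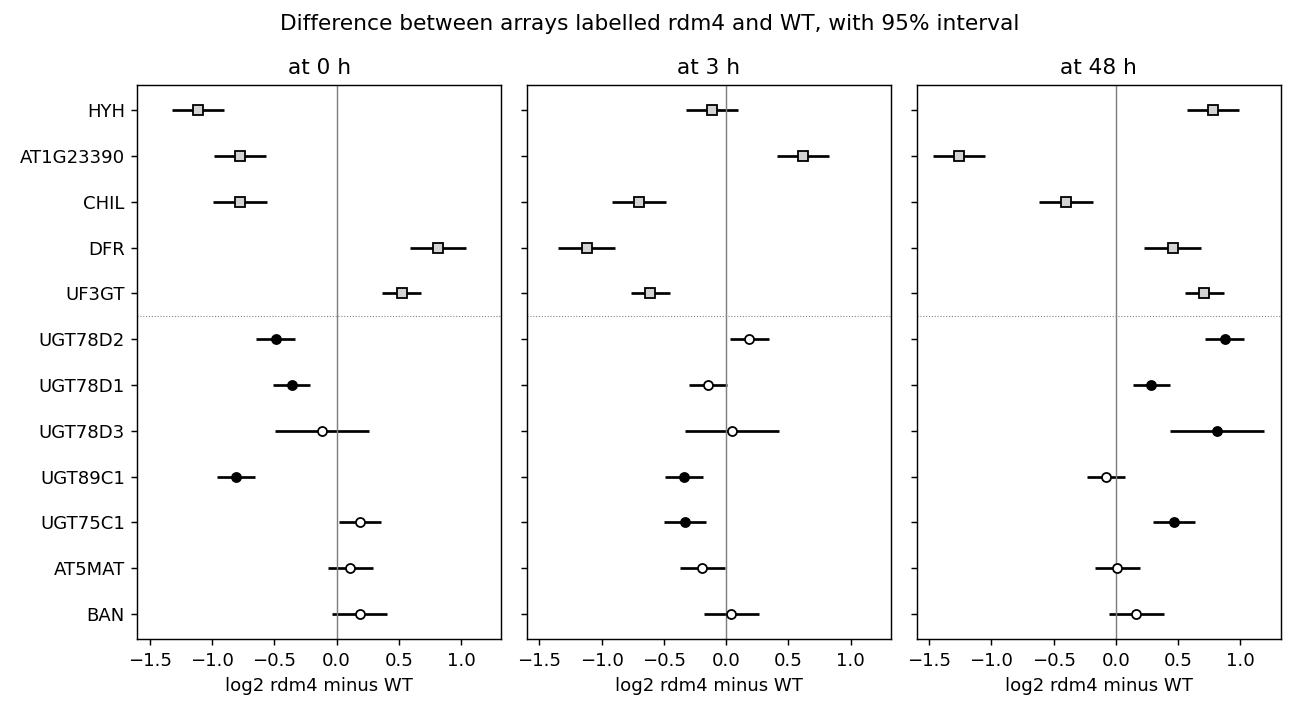
Log2 difference between the arrays labelled rdm4 and WT (horizontal axis, rdm4 minus WT) at 0, 3 and 48 h for the 5 members (above the dotted line) and the 7 other pathway genes (below it). Points are model estimates from 2 arrays per group with 95% intervals, as grey squares for the members, which were not tested, and as circles for the others, filled where the adjusted p was under 0.05. HYH moves from -1.11 to 0.78, CHIL is below 0 at all times, and DFR, UF3GT and AT1G23390 change side at 3 h.

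Whether the chilling responses themselves differed between the genotypes was tested for the 7 other genes. At 48 h all 4 flavonol glycosylation genes had a larger rise in rdm4, against 9.47% of all probe sets called so, with UGT78D2 at 1.37 ± 0.10 above the WT response (limma, adjusted p = 9.84e-07). UGT78D3 was at 0.93 ± 0.25 (adjusted p = 0.0164), UGT89C1 at 0.73 ± 0.10 and UGT78D1 at 0.65 ± 0.10. The call of UGT78D3 was lost without any 1 of 3 arrays, with adjusted p from 0.0608 to 0.0709. UGT75C1 at 0.28 ± 0.11 (adjusted p = 0.0956) and AT5MAT at -0.10 ± 0.12 (adjusted p = 0.625) did not pass. For the members the same quantity is given without a test: it was 1.89 ± 0.13 for HYH, 0.38 ± 0.14 for CHIL, 0.19 ± 0.10 for UF3GT, -0.36 ± 0.15 for DFR and -0.48 ± 0.14 for AT1G23390. The 0 h level entered this value, since HYH, CHIL, UGT89C1, UGT78D2 and UGT78D1 all started lower in rdm4. CHIL and UGT89C1 were not above WT at 48 h either, at -0.40 ± 0.10 and -0.08 ± 0.07, so that for them the larger value in rdm4 came from the 0 h level.

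Genes with the most similar course were sought among 2891 named genes whose group means spanned at least 1 log2 unit, by Pearson correlation over the 6 group means. These values describe 6 points that share their arrays, and say nothing of shared function. The 3 nearest to HYH were AT3G56290 at r = 0.997, AT5G55380 at 0.995 and MYC4, a bHLH factor gene of jasmonate signalling, at 0.994. AT3G56290 had group means of 8.63, 10.10 and 11.33 in WT and 7.94, 9.87 and 11.46 in rdm4. Its rdm4 mean was below WT at 0 h and slightly above it at 48 h. This was not tested, and the gene was picked for its likeness to HYH. Nearest to CHIL were MGL, which encodes methionine gamma-lyase, at 0.995, AT3G47080 at 0.995 and AT5G62210 at 0.994.

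Nearest to DFR were AT2G20940 at r = 0.996, AT3G25210 at 0.995 and AT4G21140 at 0.988. Those nearest to UF3GT were AT5G66010 at 0.997, AT1G54380 at 0.989 and AT3G12050 at 0.984. Among these, AT2G20940 had group means of 6.84, 7.03 and 7.97 in WT and 7.50, 5.96 and 8.49 in rdm4. A gene outside the pathway lists thus had the dip under the rdm4 label at 3 h, but it was picked for its likeness to DFR. For AT1G23390 they were AT3G53950 at 0.998, AT3G56750 at 0.997 and AT3G18800 at 0.997. AT3G53950 was at 7.22, 5.36 and 5.28 in WT and at 7.01, 5.54 and 4.63 in rdm4.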

How the data were processed

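The deposited table holds a log2 signal per probe set and array. The log2 scale was found from the values, and how the authors summarised and normalized was not given in the sources used here. Groups and replicate numbers came from the titles. The 64 control probe sets were left out and 22746 tested, of which the platform annotation assigned 13513 to 1 gene, 503 to several and 8730 to none. Names were updated by gene number through the RefSeq gene table (TAIR10.1). All 12 members and pathway genes had 1 probe set each. Sequences are not shown.

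The fit used limma 3.58.1 (R 4.3.3) with 6 group means over all 12 arrays, with 6 residual and 5.97 prior degrees of freedom, without a replicate block. Benjamini-Hochberg adjustment ran over all probe sets, and an adjusted p-value under 0.05 was a call. The number of arrays limits the precision. The fit was tested on simulated data. Background was not measured, and levels among the dimmest 30% of an array are called dim.

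The members and gene lists were chosen with earlier results of these data known. Of 79 pathway genes listed, 7 could be measured, and none of those listed under phenylpropanoid enzymes, MYB and other regulators, light signalling or further kelch F-box genes. Named were the members, all measured pathway genes, and for each member the 3 most similar genes. Neighbouring groups counted as separated where their arrays did not overlap and their means differed by over 2 SE. This rule describes the order of means sorted on the same arrays and is not a test. The labels place the replicates in different growth chambers without saying that a number stands for the same chamber in every group. Deviations of same-numbered arrays correlated with r over 0.1 in 4 of 15 pairs of groups, from -0.15 to 0.27, so the numbers were not used as pairs. A test of the members' genotype differences had been planned and was left out, because the members were chosen on these arrays.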

Additional observations from a re-analysis of the deposited data

Results flagged for a closer look

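The 48 h response was larger in rdm4 than in WT, by a test of the difference itself (limma), for UGT78D2 at 1.37, UGT78D3 at 0.93, UGT89C1 at 0.73 and UGT78D1 at 0.65 on the log2 scale. At 3 h the same test separated the genotypes for UGT78D2 at 0.68 (adjusted p = 1.50e-04), UGT89C1 at 0.47 (adjusted p = 0.00193) and UGT75C1 at -0.52 (adjusted p = 0.00198). With the 3 h genotype labels exchanged, UGT78D2 and UGT75C1 would not be called and UGT89C1 would be at 1.15. UGT78D1, not called as labelled, would then be called at 0.51 (limma, adjusted p = 0.00473). For DFR and UF3GT both 3 h arrays labelled WT lay above the 0 h arrays of WT and both labelled rdm4 below those of rdm4, although for UF3GT the gap in WT, 0.14, was under 2 SE. With the 3 h labels exchanged, both genes would lie below 0 h in both genotypes. The difference of the responses was -1.94 for DFR and -1.14 for UF3GT and was not tested, because these genes had been picked for their responses.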

How the results depend on the processing

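Of 1438 values of the other pathway genes recomputed under the alternatives, 1410 kept their direction where called and their side of the threshold. Of the others, 7 lost a call and kept their sign, 20 gained a call, and 1 lost its call and changed sign. That 1 was UGT75C1 in the difference of the 3 h responses with the 3 h labels exchanged (limma, adjusted p = 0.5). The members' genotype differences kept their sign in all 280 recomputed values, and 11 moved by more than the spread between replicates. These leave out the exchange of 3 h labels, which turns the sign by construction. Many of the values were fixed in advance. Trend and robust estimation, the replicate block, the compared arrays alone, the filter of dim probe sets and the omission of arrays of other groups cannot change a log2 difference. For the other pathway genes such settings change only the adjusted p. The counts of 7 pathway genes called higher at 48 h, 6 in each genotype and in the mean, were the same under all alternatives run, and over arrays left out in turn they ranged from 6 to 6. After median centring and after repeated quantile normalization, 1 pathway gene, UGT78D1, was called lower in WT at 3 h. For rdm4 against WT at 3 h, 1 was called higher, UGT78D2, with median centring, quantile normalization, trend and robust estimation, or without the dimmest 30% of probe sets. In the difference of the 3 h responses, 2 rather than 1 were lower without the dimmest 30% and with the replicate block, AT5MAT being added at -0.30, and UGT78D1 was called higher as well at 0.28 with median centring and 0.30 with quantile normalization. With the genotype labels of the 3 h arrays exchanged, 2 genes were called lower in WT at 3 h, UGT78D1 and UGT75C1, 0 in rdm4, and 0 between the 3 h responses, where UGT75C1 turned to 0.14 and UGT78D2 fell short at 0.30 (adjusted p = 0.0793). Between the 3 h responses UGT78D1 then gained a call as higher, at 0.51. The cause of these changes was not tested. Leaving out arrays gave 0 to 1 pathway genes higher in rdm4 at 0 h and at 3 h, 1 to 3 lower at 3 h, 1 to 2 lower between the 3 h responses, and 3 to 4 higher between the 48 h responses. The fits without the 3 h arrays and with exchanged 3 h labels were chosen after seeing the data. The replicate block changed no other call. No gene named here has a second probe set, so that alternative gave no value. Rescaling moved member levels by at most 0.05. Over the 12 arrays, 2 or 3 of each member's 3 most similar genes were again the nearest.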
